A study of Salmo salar with 8 samples.

Results

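Solute carriers are membrane proteins that move sugars, amino acids, ions, metals and other small molecules into and out of cells and organelles. Some work as exchangers, some couple the entry of their substrate to an ion gradient, and the carriers of the SLC25 family sit in the inner mitochondrial membrane. In leukocytes and macrophages they are known for the supply of glucose and amino acids and for transport across the lysosomal membrane, and in red cells the anion exchanger SLC4A1 (band 3) is the most familiar member. Described here are the 40 probes, for 29 gene symbols, whose symbol in the study's list of 2139 probes begins with SLC and a digit. They were chosen by these measurements, since the list holds probes that differed between Day 5 and Day 1 in the paired test that the study ran on the same arrays. The direction and the size of each Day 5 to Day 1 difference are therefore a description of the members, and no test of it is given. In the list 32 of the probes were higher and 8 lower at Day 5.

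The samples were adherent head kidney leukocytes (HKLs) of Atlantic salmon, cells from the main blood-forming organ of the fish that attach to the culture plate. The 4 Day 5 samples were lysed 120 h after seeding and the 4 Day 1 samples 24 h after seeding, 1 of each from Fish 1 to 4, and all wells were rinsed to take away cells that had not attached. The study had also hybridized samples of a further fish, which it removed. The study's methods name a labelling error, and elsewhere that a fish did not group by day in clustering. The counts over fish below do not include that fish. After the rinse at 24 h, the Day 5 wells were kept in fresh medium that was changed at intervals, and they were rinsed again before lysis. No agent was given, the age of the fish is not given in the sources used here, and both days hold a mixture of cell types, so that in such bulk RNA fewer cells of a type and less RNA per cell cannot be told apart. Every array, of a 44K salmonid oligonucleotide platform, carried 1 sample in the Cy5 channel and, in the Cy3 channel, a common pool made from all samples. Values below are log2 ratios of Cy5 over Cy3, so that 0 is the level of the pool, and a difference of 1 between the days is a 2-fold difference. A log2 fold change is Day 5 minus Day 1 within fish, with its standard error (SE) from limma's fit across all probes.

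The arrays held 43689 probes, of which 38695 had enough measured spots to be tested. Median Cy5 intensities lay between 337 and 594 in Day 5 samples and between 176, in Fish 1, and 531 in Day 1 samples. The median Cy3 intensity of the pool was 90.8 on the Day 5 array of Fish 1 and between 206 and 275 on the other arrays. The negative control limit of an array was set 2 SD above the mean Cy5 intensity of 153 spots without a target. Of the probes of an array, 40.4% to 51.3% exceeded it. Of the 40 solute carrier probes, 39 were tested, and 18 were above that limit on all 8 arrays. The remaining probe, C236R104 of SLC12A4, was measured on too few arrays. On the authors' processed values, the paired score (mean difference over its error plus a constant) of the members nearest the threshold was 1.60 for SLC25A1 and 1.62 for SLC2A4RG among the higher ones and -1.96 for SLC49A3 among the lower ones. The paired test as rewritten here had cutoffs of 1.59 and -1.62. The nearest unlisted probes inside these cutoffs had scores of 1.58 and -1.61. Unlisted probes beyond the cutoffs were not looked at, so these scores do not mark the edge of the study's list.

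On the scanner values, 31 of the 39 tested solute carrier probes were higher and 8 lower at Day 5, the directions that the list fixed. Their median log2 fold change was 1.04, with a range of -3.26 to 3.02, against a median of -0.004 over all tested probes. Over the 2083 tested probes of the whole list the median was 0.58, and 53.0% of these were higher. In 35 of the 39, every fish with both values moved the same way, which a list from a paired test favours. The Day 5 and Day 1 values did not overlap in 30 of the 39, a pattern that 11.3% of all tested probes showed. At an adjusted p under 0.05 in limma's fit, 13 of the 39 were called, 9 of them higher and 4 lower, beside 2.03% of all tested probes called, 1.09% higher and 0.936% lower. Among the tested probes of the whole list the share called was 34.1%. Since the rule used this contrast, nothing is read from these counts. With a normexp offset of 0 limma called 0 of the 39 and 0 of all tested probes (30 and 3992 at an unadjusted p under 0.05), and without Fish 4 it called 3 of the 39.

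**Figure D1:**
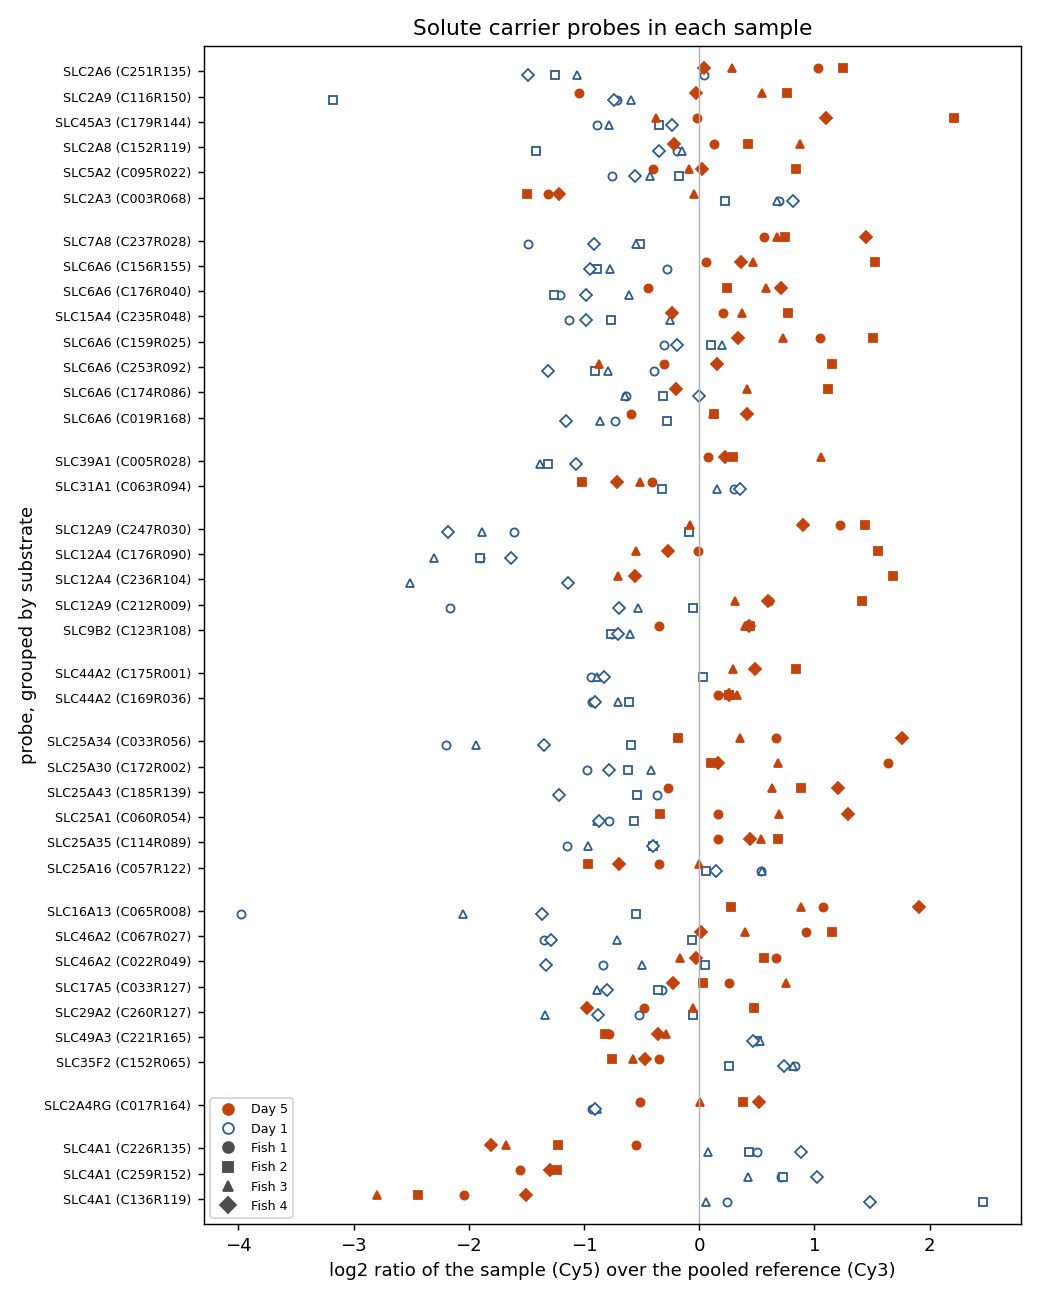
Log2 ratio of Cy5 over the Cy3 pool (horizontal axis) for each of the 40 solute carrier probes (rows, grouped by substrate), with filled symbols for Day 5 HKLs, open symbols for Day 1 HKLs and a symbol shape per fish. Apart from SLC2A3, SLC31A1, SLC25A16, SLC35F2, SLC49A3 and the 3 SLC4A1 probes, the Day 5 symbols lie mostly to the right of the Day 1 symbols.

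The sugar carriers were divided. Of the 6 probes 5 were higher at Day 5, with log2 fold changes between 0.57 and 1.59, and 1 was lower. SLC2A3 encodes GLUT3, a high-affinity glucose transporter of neurons and leukocytes in mammals. Its log2 ratios were -1.31, -1.49, -0.04 and -1.22 in Day 5 HKLs of Fish 1 to 4, against 0.70, 0.23, 0.68 and 0.82 in Day 1 HKLs of the same fish. Every Day 5 value was below every Day 1 value, and the Day 5 sample of Fish 3 was the closest to Day 1, with a log2 fold change over the 4 fish of -1.62 (SE 0.33). SLC2A6 encodes GLUT6, a glucose transporter of lysosomal membranes in mammals. The SLC2A6 probe read 1.03, 1.25, 0.28 and 0.04 in Day 5 HKLs of Fish 1 to 4, against 0.04, -1.25, -1.06 and -1.49 in Day 1 HKLs of the same fish. The days touched without overlapping, since the highest Day 1 value, in Fish 1, lay just below the lowest Day 5 value, in Fish 4, and the log2 fold change was 1.59 (SE 0.33).

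Of the other sugar carriers, SLC2A8 encodes the intracellular glucose transporter GLUT8, with log2 ratios of 0.13, 0.42, 0.88 and -0.22 in Day 5 HKLs of Fish 1 to 4, against -0.19, -1.41, -0.15 and -0.35 in Day 1 HKLs of the same fish. The Day 1 sample of Fish 2 was far below the others, the days overlapped, and the log2 fold change of 0.83 (SE 0.35) was 0.49 without Fish 2. SLC2A9, known as a urate transporter in humans, was measured at -1.05, 0.76, 0.54 and -0.02 in Day 5 HKLs of Fish 1 to 4, against -0.71, -3.18, -0.59 and -0.74 in Day 1 HKLs of the same fish. Here too the Day 1 sample of Fish 2 stood alone at the low end, but the probe was above the negative control limit on 3 Day 5 arrays and 1 Day 1 array only. Fish 1 was lower at Day 5, the other 3 fish were higher, and the log2 fold change of 1.36 (SE 0.54) was 0.50 without Fish 2. SLC45A3 is a carrier first described in the prostate, for which sugar transport has been shown in heterologous cells. Its log2 ratios were -0.02, 2.21, -0.37 and 1.10 in Day 5 HKLs of Fish 1 to 4, against -0.89, -0.35, -0.78 and -0.24 in Day 1 HKLs of the same fish. The Day 5 samples of Fish 2 and Fish 4 were high and that of Fish 3 lay among the Day 1 values, with a log2 fold change of 1.30 (SE 0.37). This probe, too, was above that limit on 3 Day 5 arrays and 1 Day 1 array only. SLC5A2 encodes SGLT2, the sodium-coupled glucose transporter of the kidney tubule. It showed the smallest difference of the group, 0.57 (SE 0.30), with values from -0.40 to 0.84 in Day 5 HKLs and from -0.76 to -0.18 in Day 1 HKLs, and only 2 Day 5 arrays and 1 Day 1 array were above the negative control limit.

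All 8 probes of the amino acid, taurine and peptide carriers were higher at Day 5, with a median log2 fold change of 1.01. SLC7A8 encodes LAT2, the light chain of a heterodimeric exchanger of neutral amino acids. It read 0.56, 0.75, 0.68 and 1.45 in Day 5 HKLs of Fish 1 to 4, against -1.48, -0.52, -0.55 and -0.92 in Day 1 HKLs of the same fish. The 4 Day 5 values lay well above the 4 Day 1 values, and the log2 fold change of 1.73 (SE 0.32) was the largest of the group. SLC15A4 encodes a lysosomal carrier of histidine and small peptides that is needed for signalling by endosomal Toll-like receptors in mouse immune cells. Its log2 ratios were 0.21, 0.77, 0.37 and -0.24 in Day 5 HKLs of Fish 1 to 4, against -1.13, -0.77, -0.26 and -0.98 in Day 1 HKLs of the same fish. The lowest Day 5 value, in Fish 4, and the highest Day 1 value, in Fish 3, were almost equal, and the log2 fold change was 1.06 (SE 0.31).

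SLC6A6 encodes the sodium- and chloride-dependent taurine transporter, and with 6 probes it was the most heavily represented member. The 6 log2 fold changes ranged from 0.76 to 1.32, with a mean of 1.00 ± 0.25 (SD over 6 probes, which share the same samples). Probe C156R155 read 0.06, 1.53, 0.46 and 0.36 in Day 5 HKLs of Fish 1 to 4, against -0.28, -0.89, -0.78 and -0.95 in Day 1 HKLs of the same fish. The days did not overlap in it, nor in C176R040 or C159R025, whose log2 fold changes were 1.28 (SE 0.31) and 0.96 (SE 0.32). Probe C159R025 read 1.05, 1.51, 0.73 and 0.34 in Day 5 HKLs of Fish 1 to 4, against -0.31, 0.10, 0.20 and -0.20 in Day 1 HKLs of the same fish. Fish 2 was the highest Day 5 sample in it, as also in C156R155, C174R086 and C253R092, whereas Fish 4 was the highest in C176R040 and C019R168.

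In the other 3 SLC6A6 probes the days overlapped. Probe C253R092 read -0.30, 1.15, -0.87 and 0.16 in Day 5 HKLs of Fish 1 to 4, against -0.39, -0.90, -0.79 and -1.31 in Day 1 HKLs of the same fish. Its log2 fold change of 0.88 (SE 0.39) came from Fish 2 and Fish 4, since Fish 1 and Fish 3 differed by 0.09 and -0.072 between the days. Probe C174R086 had no Day 5 value for Fish 1, which the fit therefore dropped, and a difference of -0.20 in Fish 4. Its log2 fold change of 0.76 (SE 0.41) thus rests on Fish 2 and Fish 3, with differences of 1.43 and 1.06. It was above the negative control limit on 3 Day 5 arrays and 2 Day 1 arrays. Probe C019R168, with differences of 0.14, 0.40, 0.98 and 1.56 in Fish 1 to 4, gave 0.77 (SE 0.33).

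**Figure D2:**
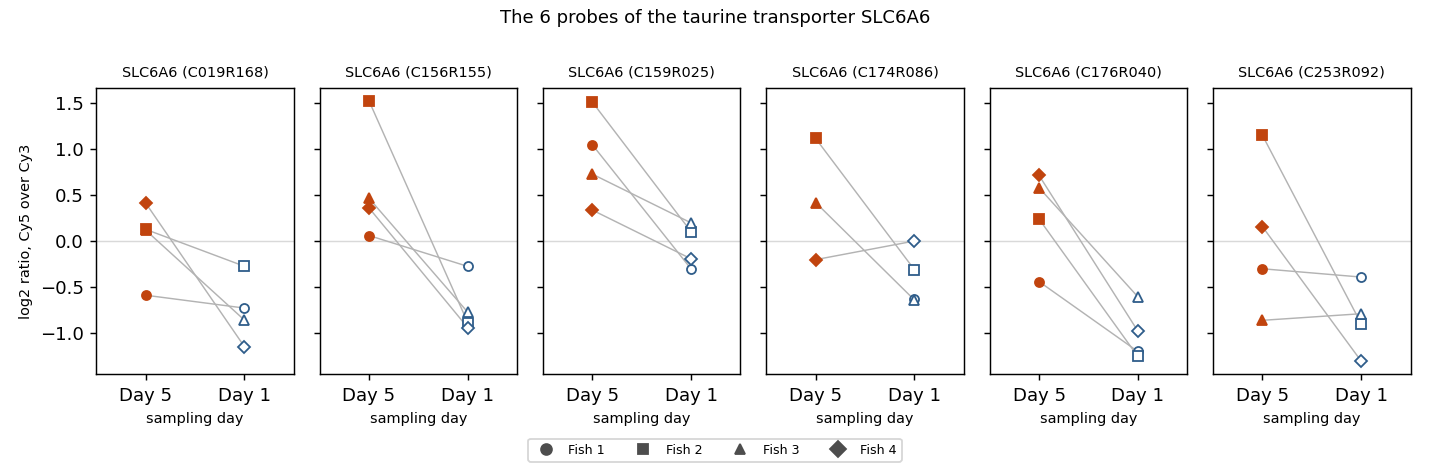
Log2 ratio of Cy5 over the Cy3 pool (vertical axis) for the 6 SLC6A6 probes, 1 panel each, in Day 5 HKLs (left, filled) and Day 1 HKLs (right, open), with a line joining the samples of a fish. Most lines run from a higher Day 5 to a lower Day 1 value, and those of Fish 4 in C174R086 and of Fish 3 in C253R092 run the other way.

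The metal carriers were split in direction. SLC39A1 encodes ZIP1, a zinc importer of the plasma membrane. It read 0.08, 0.30, 1.05 and 0.22 in Day 5 HKLs of Fish 1 to 4, against -1.31, -1.38 and -1.07 in Day 1 HKLs of Fish 2, 3 and 4. The days were clearly apart, with Fish 3 the highest at Day 5, and the log2 fold change of 1.78 (SE 0.38) rests on 3 fish, since the Day 1 spot of Fish 1 carried no usable value. SLC31A1 is the symbol of the high-affinity copper importer CTR1. Its probe read -0.41, -1.02, -0.51 and -0.71 in Day 5 HKLs of Fish 1 to 4, against 0.30, -0.32, 0.15 and 0.35 in Day 1 HKLs of the same fish. All Day 5 values were below all Day 1 values, and the log2 fold change was -0.79 (SE 0.30).

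The identity of this SLC31A1 probe is uncertain, because another supplementary list of the study pairs the symbol with a transcript described as a homolog of cell division cycle 26. A second probe, C179R155, is listed under COPT1, which is an alternative name for the same copper transporter. It moved the other way, with log2 ratios of -0.20, 1.55, -0.25 and 1.37 in Day 5 HKLs of Fish 1 to 4, against -0.75, -0.89, -1.18 and -1.53 in Day 1 HKLs of the same fish. Its log2 fold change was 1.71 (SE 0.40).

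The ion carriers had the highest median of the substrate groups with more than 2 tested probes, 1.85 over 4 tested probes, all higher at Day 5. SLC12A9 is a member of the cation-chloride cotransporter family whose own transport activity is poorly known. Its probe C247R030 read 1.22, 1.44, -0.08 and 0.90 in Day 5 HKLs of Fish 1 to 4, against -1.61, -0.09, -1.88 and -2.18 in Day 1 HKLs of the same fish. The groups almost met, at Fish 3 on Day 5 and Fish 2 on Day 1, and the log2 fold change was 2.31 (SE 0.35). The second SLC12A9 probe, C212R009, read 0.60, 1.41, 0.31 and 0.60 in Day 5 HKLs of Fish 1 to 4, against -2.17, -0.05, -0.53 and -0.70 in Day 1 HKLs of the same fish. Its log2 fold change of 1.59 (SE 0.36) was 0.72 below that of C247R030, which was above the negative control limit on 3 Day 5 arrays and 1 Day 1 array only.

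SLC12A4 encodes KCC1, a potassium-chloride cotransporter of cell volume regulation that is found in many cells, red cells among them. Probe C176R090 read -0.01, 1.55, -0.55 and -0.27 in Day 5 HKLs of Fish 1 to 4, against -1.90, -1.91, -2.30 and -1.63 in Day 1 HKLs of the same fish. Fish 2 was far above the other fish at Day 5, and the log2 fold change was 2.11 (SE 0.37). This probe was above the negative control limit on 4 Day 5 arrays and 2 Day 1 arrays. Probe C236R104, which matches another SLC12A4-like locus, was measured in 5 samples, at 1.68, -0.70 and -0.56 in Day 5 HKLs of Fish 2, 3 and 4, against -2.51 and -1.13 in Day 1 HKLs of Fish 3 and 4. It showed the same order, with Fish 2 far above Fish 3 and Fish 4 at Day 5. SLC9B2 encodes the sodium/proton antiporter NHA2. Its log2 ratios were -0.35, 0.44, 0.40 and 0.43 in Day 5 HKLs of Fish 1 to 4, against -0.76, -0.77, -0.60 and -0.71 in Day 1 HKLs of the same fish. In 3 fish the Day 5 values were close together and Fish 1 was lower, and the log2 fold change was 0.94 (SE 0.31).

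SLC44A2, a choline transporter-like protein that in humans carries a neutrophil alloantigen, was the only member of the choline group. Probe C169R036 read 0.16, 0.26, 0.33 and 0.26 in Day 5 HKLs of Fish 1 to 4, against -0.93, -0.61, -0.70 and -0.91 in Day 1 HKLs of the same fish. These were the tightest values among the higher members, with an SD of 0.13 over the differences of the 4 fish, and a log2 fold change of 1.04 (SE 0.29). Probe C175R001 read 0.84, 0.30 and 0.49 in Day 5 HKLs of Fish 2, 3 and 4, against -0.93, 0.03, -0.89 and -0.83 in Day 1 HKLs of Fish 1 to 4. It gave 1.10 (SE 0.36) over 3 fish, within 0.06 of the first probe, and its Day 1 value in Fish 2 lay well above the other 3 Day 1 values.

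Of the 6 mitochondrial carriers 5 were higher and 1 was lower at Day 5, each with no overlap between the days. SLC25A1 encodes the citrate carrier, which exports citrate that the cytosol uses for fatty acid and sterol synthesis. It read 0.16, -0.34, 0.69 and 1.29 in Day 5 HKLs of Fish 1 to 4, against -0.78, -0.57, -0.89 and -0.87 in Day 1 HKLs of the same fish. Fish 4 was the highest and Fish 2 the lowest at Day 5, only 0.23 above its own Day 1 value, and the log2 fold change was 1.23 (SE 0.36). SLC25A34 is a carrier of uncertain substrate. Its probe read 0.67, -0.19, 0.35 and 1.76 in Day 5 HKLs of Fish 1 to 4, against -2.20, -0.60, -1.94 and -1.35 in Day 1 HKLs of the same fish. The log2 fold change was 2.17 (SE 0.42), with differences from 0.41 in Fish 2 to 3.11 in Fish 4. The probe exceeded the negative control limit on 3 Day 5 arrays and 0 Day 1 arrays. The mean difference is therefore bounded as at least 2.54-fold higher in Day 5 HKLs.

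Such a bound compares the mean of the bright day with the floor of measurable signal on the arrays of the dim day. Where the probe's own value on a dim array was above that floor, its own value was used instead. The bound can then come close to the measured difference of spots under the negative control limit. The Cy5 channel is taken alone after loess and Aquantile scaling, and the bound is open to dye bias because dyes were not swapped. It concerns the mean over the arrays, carries no error, and single fish can differ by less. SLC25A30, a kidney-enriched mitochondrial carrier first described in the mouse, read 1.64, 0.10, 0.68 and 0.17 in Day 5 HKLs of Fish 1 to 4, against -0.97, -0.61, -0.41 and -0.79 in Day 1 HKLs of the same fish. Fish 1 was the highest at Day 5, and the log2 fold change was 1.34 (SE 0.36). The SLC25A30 probe was above the negative control limit on 4 Day 5 arrays and 2 Day 1 arrays. SLC25A35 (Day 5 values from 0.16 to 0.68, Day 1 values from -1.15 to -0.40) and SLC25A43 (from -0.27 to 1.20 in Day 5 HKLs and from -1.22 to -0.36 in Day 1 HKLs) are carriers with little-known substrates. Their log2 fold changes were 1.18 (SE 0.30) over 4 fish and 1.31 (SE 0.45) over 3 fish, and without Fish 4 that of SLC25A43 was 0.76. The SLC25A35 probe, too, was above that limit on 4 Day 5 arrays and 2 Day 1 arrays.

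SLC25A16, a mitochondrial carrier linked to coenzyme A, was the lower one. It read -0.35, -0.97, -0.0004 and -0.69 in Day 5 HKLs of Fish 1 to 4, against 0.54, 0.06, 0.54 and 0.15 in Day 1 HKLs of the same fish. The Day 5 value of Fish 3 lay just under the lowest Day 1 value, and the log2 fold change was -0.82 (SE 0.30). On the Day 5 arrays 0 exceeded the negative control limit, which bounds the mean difference as at least 1.46-fold lower in Day 5 HKLs. Another mitochondrial carrier is outside the SLC symbols in the list. The pyruvate carrier, made of MPC1 and MPC2, had 5 MPC1 probes with log2 fold changes from 0.62 to 1.05 and 1 MPC2 probe at 1.06 (SE 0.34), all higher in every fish.

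**Figure D3:**
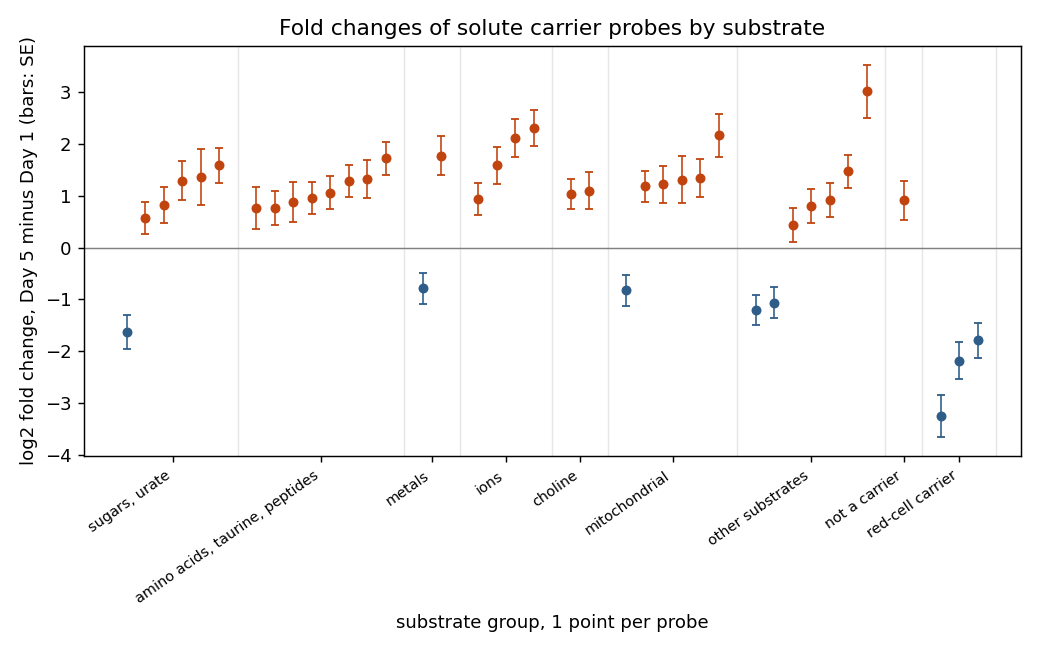
Log2 fold change, Day 5 minus Day 1 (vertical axis), of the 39 tested solute carrier probes by substrate group (horizontal axis), 1 point per probe with its SE from limma. Sugar, metal, mitochondrial and other carriers hold points on both sides of 0, the amino acid, ion and choline carriers lie above it, and SLC4A1 lies below it.

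Among the carriers of other substrates, SLC16A13 had the highest log2 fold change on the scanner values with an offset of 50. It encodes a monocarboxylate transporter-like protein of the family that carries lactate and pyruvate. Its log2 ratios were 1.07, 0.27, 0.88 and 1.90 in Day 5 HKLs of Fish 1 to 4, against -3.98, -0.55, -2.05 and -1.37 in Day 1 HKLs of the same fish. The 4 Day 5 values were above all Day 1 values, but the Day 1 values were widely spread, from Fish 1 at the bottom to Fish 2 at the top. The differences were 5.05, 0.82, 2.93 and 3.27 in Fish 1 to 4, with a log2 fold change of 3.02 (SE 0.52) and of 2.34 without Fish 1. The probe was above the negative control limit on 4 Day 5 arrays and on 1 Day 1 array.

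SLC46A2 encodes a proton-coupled carrier named for the thymic stroma, where it was found in the mouse. The contig of one of its probes had been matched to a record called a pseudogene of that carrier. Probe C067R027 read 0.93, 1.15, 0.40 and 0.02 in Day 5 HKLs of Fish 1 to 4, against -1.35, -0.06, -0.72 and -1.28 in Day 1 HKLs of the same fish. The days did not overlap, and the log2 fold change was 1.48 (SE 0.32). The second probe, C022R049, gave 0.92 (SE 0.32), with overlapping days, since the Day 1 value of Fish 2, 0.05, was above the Day 5 values of Fish 3 and Fish 4, -0.16 and -0.03.

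SLC17A5 encodes sialin, which exports sialic acid from lysosomes. It read 0.26, 0.04, 0.76 and -0.22 in Day 5 HKLs of Fish 1 to 4, against -0.32, -0.36, -0.89 and -0.80 in Day 1 HKLs of the same fish. The difference was largest in Fish 3, at 1.65, and between 0.40 and 0.59 in the other 3 fish, and the log2 fold change of 0.80 (SE 0.32) was 0.52 without Fish 3. The SLC17A5 probe was above the negative control limit on 3 Day 5 arrays and 2 Day 1 arrays. SLC29A2, the equilibrative nucleoside transporter ENT2, was the least secure member on the scanner values. Its log2 ratios were -0.48, 0.48, -0.05 and -0.97 in Day 5 HKLs of Fish 1 to 4, against -0.53, -0.05, -1.34 and -0.88 in Day 1 HKLs of the same fish. The days overlapped, no Day 5 array and 2 Day 1 arrays were above the negative control limit, and the log2 fold change of 0.44 (SE 0.33) was 0.16 without Fish 3. In the authors' processed values the same probe differed by 2.04.

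Both lower members of this group were tightly measured. SLC35F2, of the nucleotide sugar transporter superfamily, read -0.35, -0.76, -0.58 and -0.47 in Day 5 HKLs of Fish 1 to 4, against 0.84, 0.26, 0.82 and 0.74 in Day 1 HKLs of the same fish. Fish 2 was the lowest on both days, the differences lay between -1.39 and -1.02, and the log2 fold change was -1.20 (SE 0.29). SLC49A3, an orphan carrier of the family of the heme exporter FLVCR1, read -0.78, -0.82, -0.29 and -0.36 in Day 5 HKLs of Fish 1 to 4, against 0.51, 0.50, 0.53 and 0.47 in Day 1 HKLs of the same fish. The Day 1 values were nearly equal (0.50 ± 0.03, SD, n = 4), and the log2 fold change was -1.06 (SE 0.30). MFSD7, an older symbol for SLC49A3, is listed for another probe, C074R107, which was also lower in every fish, with a log2 fold change of -1.73 (SE 0.34).

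SLC2A4RG fits the rule by its symbol only. It encodes a transcriptional regulator of the glucose transporter gene SLC2A4 and is no carrier, and it is kept apart for that reason. Its probe read -0.51, 0.38, 0.0081 and 0.52 in Day 5 HKLs of Fish 1 to 4, against -0.93, -0.89 and -0.91 in Day 1 HKLs of Fish 1, 3 and 4. The 3 Day 1 values were nearly equal, the Day 5 values were all higher, and the log2 fold change was 0.92 (SE 0.37) over 3 fish. The probe was above the negative control limit on 3 Day 5 arrays and 1 Day 1 array only.

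The red-cell carrier gave the 3 lowest log2 fold changes of the set on the scanner values with an offset of 50. SLC4A1, the chloride/bicarbonate exchanger that is a main membrane protein of red cells, was lower at Day 5 with all 3 probes. Probe C136R119 read -2.04, -2.44, -2.79 and -1.50 in Day 5 HKLs of Fish 1 to 4, against 0.24, 2.47, 0.06 and 1.48 in Day 1 HKLs of the same fish. Its log2 fold change was -3.26 (SE 0.40). The Day 1 samples of Fish 2 and Fish 4 were far above those of Fish 1 and Fish 3, and the difference ranged from -4.90 in Fish 2 to -2.29 in Fish 1.

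Probe C259R152 of SLC4A1 read -1.55, -1.23 and -1.29 in Day 5 HKLs of Fish 1, 2 and 4, against 0.71, 0.73, 0.42 and 1.03 in Day 1 HKLs of Fish 1 to 4. Its log2 fold change was -2.18 (SE 0.35) over 3 fish, with an SD of 0.19 over their differences. Only 1 Day 5 array was above the negative control limit, so its close Day 5 values lie near the floor. Probe C226R135 read -0.55, -1.23, -1.67 and -1.81 in Day 5 HKLs of Fish 1 to 4, against 0.50, 0.43, 0.07 and 0.88 in Day 1 HKLs of the same fish. Fish 4 had the highest Day 1 and the lowest Day 5 value in it, and the log2 fold change was -1.78 (SE 0.34). Since no Day 5 array was above the negative control limit, the mean difference is bounded as at least 2.41-fold lower in Day 5 HKLs. In the authors' processed values the difference of this probe was -5.59, the largest departure from the scanner values among the members.

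Further carriers, some of them of red cells, are listed under Rh symbols and are not members of the SLC set. They belong to the family of ammonium transporters and Rh blood group proteins. RHAG, the Rh-associated glycoprotein of red cells, read -0.54, -1.12, -1.51 and -0.74 in Day 5 HKLs of Fish 1 to 4, against 0.32, 0.57, 0.43 and 1.08 in Day 1 HKLs of the same fish. All 4 fish were lower at Day 5, and 0 of the Day 5 arrays exceeded the negative control limit. This bounds the mean difference as at least 2.65-fold lower in Day 5 HKLs. RHBG, a related ammonium transporter known from kidney and other epithelia in mammals, had 2 probes at -1.82 (SE 0.34) and -2.57 (SE 0.39). These were above the negative control limit on 1 and 2 Day 5 arrays. The 4 RHD probes had log2 fold changes between -1.93 and -1.10, again with no fish higher at Day 5. RHD probes C011R079 and C069R106 were above that limit on 1 and 2 Day 5 arrays.

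**Figure D4:**
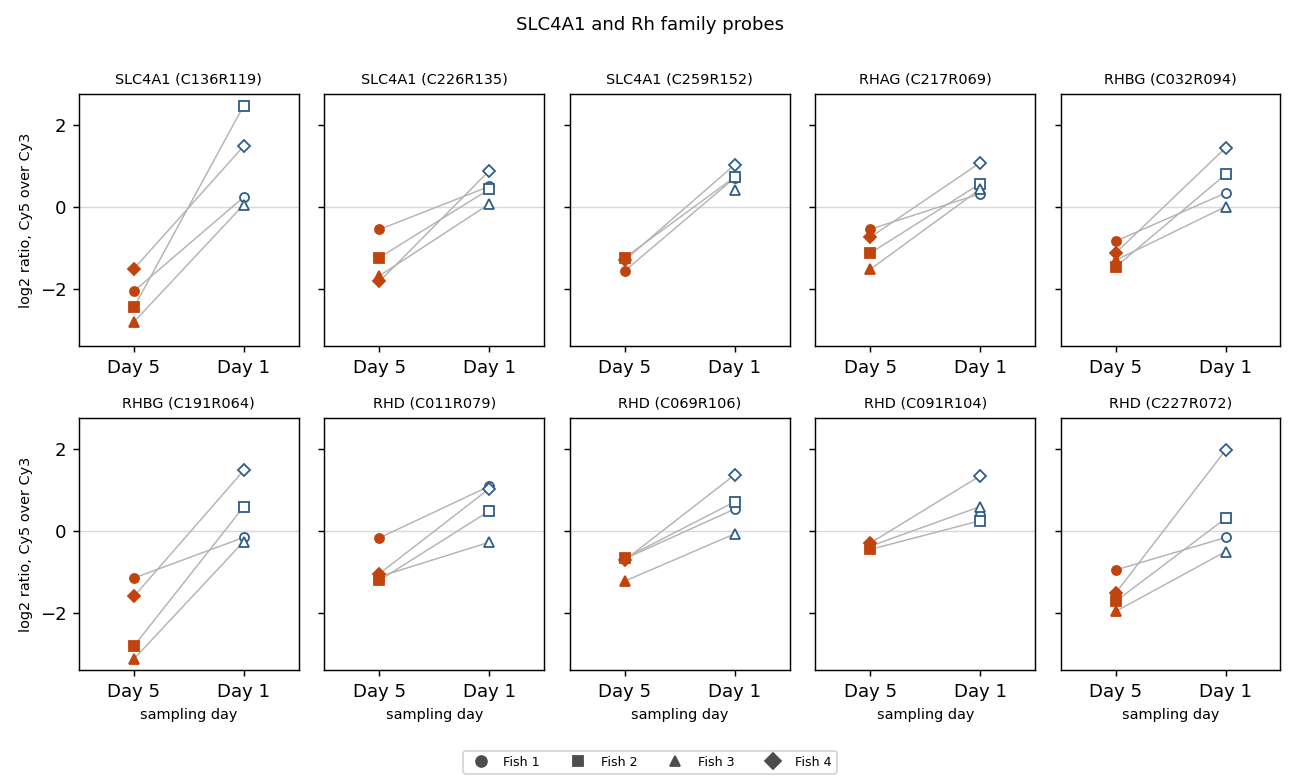
Log2 ratio of Cy5 over the Cy3 pool (vertical axis) for the 3 SLC4A1 probes and the 7 Rh family probes, 1 panel each, in Day 5 HKLs (left, filled) and Day 1 HKLs (right, open), with a line joining the samples of a fish. Every line ends higher at Day 1, and the Day 1 value of Fish 4 is the highest in 8 of the 10 panels.

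The SLC4A1 values moved in the direction of most other listed red-cell genes. Of 30 probes for 18 erythroid symbols in the study's list, which was chosen on the same contrast, 27 were lower at Day 5. The median log2 fold change of the 30 was -1.71. The 3 higher probes were C207R158 of HBA4 (0.65), C099R123 of GFI1B (1.61) and C208R126 of GFI1B (1.96). The mean log2 ratio of the 30 probes lay between -1.56 and -0.92 in Day 5 HKLs and between -0.11 and 1.09 in Day 1 HKLs. Of the 30 probes, 7 exceeded the negative control limit on 0 Day 5 arrays. The mean over the SLC4A1 probes lay between -2.23 and -1.38 in Day 5 HKLs and between 0.18 and 1.21 in Day 1 HKLs. Its lowest value, -2.23 in Fish 3, lacks C259R152, which had no value on that array. The erythroid and the SLC4A1 means were both lower in Fish 1 and Fish 3 than in Fish 2 and Fish 4 at Day 1. On the Day 1 arrays 0 of the 30 probes were under the limit throughout. The part of red-cell content in the SLC4A1 difference was not tested.

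The listed probes whose pattern over the 8 arrays was most like that of SLC4A1 were not all red-cell genes. For C226R135, the 5 probes of other symbols with the highest Pearson correlation, among 1676 listed probes with all 8 values, were those of IGHA2 (0.99), BLVRB (0.99), AQPA (0.99), KAT-1 (0.98) and IGKC (0.98). For C136R119 they were IGHM (0.98), CD209 (0.98), CREM (0.98), ALAS2 (0.97) and IGKC (0.96). BLVRB is biliverdin reductase B and ALAS2 the first enzyme of heme synthesis in red cells, whereas IGHM, IGHA2 and IGKC are immunoglobulin genes. All these probes were listed for their day difference and share the arrays, so the correlations describe that difference and carry no test. C259R152, with 7 values, was not ranked.

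For the members that were higher at Day 5, the same comparison with cell type markers is given. The tested macrophage markers were probes of CSF1R, MRC1, LPL, LGMN, GRN, SIGLEC1 and CTSB. They were chosen with earlier results of these data known, so their shared direction is no test. The choice was not exhaustive, and CD209, among the probes most like SLC4A1, was not in it. Of these 24 probes 24 were higher at Day 5, with a median log2 fold change of 1.72. Their mean log2 ratio lay between 0.09 and 0.79 in Day 5 HKLs and between -1.48 and -1.16 in Day 1 HKLs. The mean over the 31 higher solute carrier probes lay between 0.21 and 0.74 in Day 5 HKLs and between -1.01 and -0.65 in Day 1 HKLs. Probes of B cells (43 of 44), of T and NK cells (9 of 9) and of thrombocytes (4 of 4) were lower at Day 5, and 4 of 7 neutrophil probes were higher. These marker probes, too, had been listed for their day difference, and the part of the cell mixture in the solute carrier values was not tested.

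The carriers under other symbols, the Rh family among them, went both ways. The list of 10 such symbols had 18 tested probes, 9 higher and 9 lower at Day 5, with a median log2 fold change of -0.24. All the Rh probes were lower. Apart from them only the MFSD7 and SC6A7 probes were lower, so the even split and the median come largely from the Rh probes. SPX2, a name for the glucose-6-phosphate exchanger SLC37A2, and S20AA, a name for a sodium-phosphate cotransporter, were higher in all 4 fish, with 1.05 (SE 0.31) and 0.91 (SE 0.33). SC6A7, a name for the proline transporter SLC6A7, read -0.70, -1.25, -1.07 and -1.32 in Day 5 HKLs of Fish 1 to 4, against 0.26, 0.35, 0.16 and 0.21 in Day 1 HKLs of the same fish. The days were far apart, with a log2 fold change of -1.33 (SE 0.30), so that among the amino acid carriers by function 1 listed probe was lower.

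The size of the differences varied between fish, while their direction was mostly shared, which a list from a paired test on these fish favours. Of the 33 solute carrier probes with all 8 values, 26 were higher by the fit, and of those 26 all were higher in Fish 2, and all but 1 in each other fish, SLC2A9 being lower in Fish 1, the C253R092 probe of SLC6A6 in Fish 3 and SLC29A2 in Fish 4. The 7 lower probes were lower in every fish. The sample labels give no slide, and slides were inferred from a number in the scanner's image names. By that number both arrays of Fish 1 lay on 1 slide and both arrays of Fish 3 on another. These 2 differences were thus taken within a slide. In Fish 2 and Fish 4 the days lay on different slides, and no Day 1 sample shared a slide with their Day 5 samples. Day and slide therefore cannot be told apart in these 2 fish. The 31 higher probes had a median difference of 0.97 in Fish 1 and 1.12 in Fish 3. It was 1.34 in Fish 2 and 1.30 in Fish 4. Fish 2 had the largest absolute difference in 14 of the 33 probes and Fish 3 the smallest in 12.

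The authors' processed values, on which the list was made, gave larger differences for most members. Such a choice of members favours larger differences in those values, and the same comparison over all probes was not made. Of the 39 tested probes 36 differed more in them than on the scanner values, with median absolute differences of 1.48 and 1.23. In 14 the processed difference was over 1.5 times that of the scanner values, SLC4A1 (C226R135), SLC29A2, SLC45A3, SLC17A5 and SLC5A2 among them, and in 1, SLC39A1, it was the other way. All kept their direction, which the list had fixed. With a normexp offset of 0 instead of 50 the SLC16A13 log2 fold change was 3.95 and that of SLC25A34 2.59, and the other tested members moved less.

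**Figure D5:**
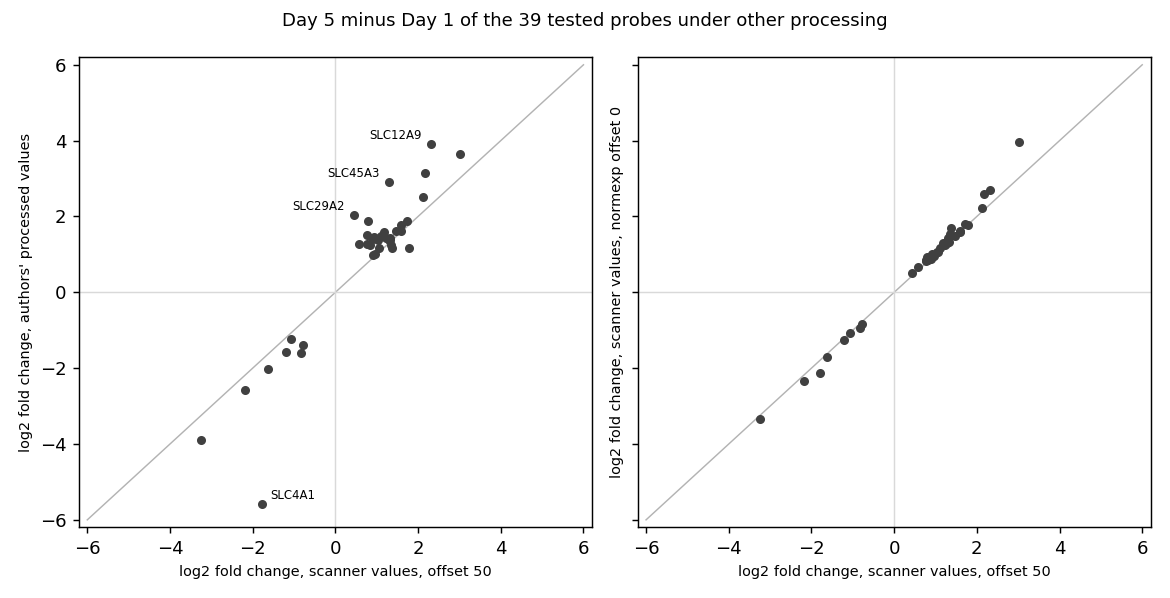
Log2 fold change, Day 5 minus Day 1, of the 39 tested solute carrier probes in the authors' processed values (left, vertical axis) and on scanner values with an offset of 0 (right, vertical axis) against that on scanner values with an offset of 50 (horizontal axes), with the line of equality. On the left SLC4A1 (-5.59), SLC12A9 (3.91), SLC45A3 (2.90) and SLC29A2 (2.04) lie far from the line, and on the right SLC16A13 (3.95) does.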

How the data were processed

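Adherent HKLs of 4 fish were measured at Day 5 and Day 1 on 8 arrays, grouped by the day and fish in the labels. The authors deposited scanner intensity values of both channels (signal mean, background median and SD, with quality flags) without normalization. Processed log2 ratios of 18108 probes, also deposited, had been background-corrected, loess-normalized and imputed. The scanner intensities were processed here with R 4.3.3, limma 3.58.1 and statmod 1.5.0: normexp correction (offset 50), loess within arrays with weight 0 for controls and unusable spots, and missing values for flagged spots and spots not 2 SD above local background in either channel. Probes missing on more than 2 arrays were left out. The Day 5 minus Day 1 contrast was fitted with lmFit and eBayes, with a block for fish, and adjusted by Benjamini-Hochberg (threshold 0.05), as both samples of a number came from 1 fish. After subtraction of each day's mean, the Day 5 and Day 1 samples of Fish 1 to 4 correlated at -0.06, -0.08, 0.06 and 0.03, so the pairing rests on their origin. For arrays, their number limits the precision. Paired SAM was rewritten with all 16 sign flips.

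Symbols came from the symbol column of the study's supplementary list, because the scanner files name no genes, and all 40 probes were matched by probe identifier. Every member is named and grouped by substrate, and the 5 probes of other symbols most like SLC4A1 are named by correlation. The members, groups and marker lists were chosen with earlier results of these data known. The negative control limit was set with the data in view. The procedures were tested on simulated data. Alternatives were other background corrections, normalizations, filters, value tables and tests, fits without the fish block or with slide, and each fish left out.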

Additional observations from a re-analysis of the deposited data

Results flagged for a closer look

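In 5 of the 72 sets of 4 values of a probe on a day, 1 sample lay far from the other 3, by Dixon's ratio of its gap to the whole range. Chance flags about 1 in 20 such sets. The Day 1 sample of Fish 2 was that sample in 4 of the 5. In SLC2A9, above the negative control limit on 1 Day 1 array only, it was at -3.18, against -0.74 for the nearest (ratio 0.944). In SLC2A8 it was at -1.41, against -0.35 (ratio 0.842), and in SLC35F2 at 0.26, against 0.74 (ratio 0.8293), below the others in each case. In SLC44A2 (C175R001) it was above them, at 0.03 against -0.83 (ratio 0.889). In SLC9B2 the Day 5 sample of Fish 1 was low, at -0.35 against 0.40 (ratio 0.946).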

How the results depend on the processing

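Each of the 39 tested solute carrier probes kept its direction in all of the 16 alternative settings that tested it. The list had fixed these directions on the same arrays, so their constancy is no separate support. Within 1 slide, SLC2A9 differed by -0.33 in Fish 1 and the C253R092 probe of SLC6A6 by -0.072 in Fish 3, opposite to their log2 fold changes, and the rest kept their sign. With plain subtraction and with a normexp offset of 0, limma called 0 of the 39 and 0 of all 38695 probes, although 4217 and 3992 probes, 30 members in each case, had an unadjusted p under 0.05. The cause was not tested. The authors' processed values gave 21 members in limma and 40 members and 2121 probes in paired SAM. In a fit with the fish block and slide as a random block, 21 members and 2676 probes were called, beside 13 and 784. Its slide correlation of 0.92 was estimated from only 8 arrays, so these calls are given as an alternative only. The median log2 fold change of the 39 went from 1.04 to 0.92 in it. Single members moved both ways, SLC6A6 (C253R092) from 0.88 to 0.10 and SLC16A13 from 3.02 to 3.89. Without the replicate block the pairing was dropped, and 16 members and 918 probes were called. Leaving out 1 fish gave 3 to 12 members and 335 to 750 probes. Without Fish 4, 3 members and 335 probes were called, without Fish 3, 7 and 382, and without Fish 2, 8 and 564. The number of members higher at Day 5 stayed at 31 in each of these fits with 39 tested. Signal limits the dim probes: 18 of 40 were above the negative control limit on all 8 arrays.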
